A study of Homo sapiens with 4 samples.

Results

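H3K27ac, an acetylated lysine of histone H3 found at active promoters and enhancers, was mapped by ChIP-seq in SK-Hep1 cells. The regions described here are wide H3K27ac peaks of SMARCB1-knockdown cells that control cells shared only in part, so that acetylated sequence reached further in the knockdown list than in the control list. A region was taken when its knockdown peak was at least 1500 bp wide and when more than 0 but less than 60% of its length lay under control peaks, on the autosomes or X. The members were thus chosen by peak width and covered length in the knockdown and control lists, and these values are given below as a description only. In all, 618 regions met the rule, out of 34073 knockdown peaks (1.81%) and out of 18184 wide knockdown peaks (3.40%).

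SK-Hep1 is a human line labelled as hepatic adenocarcinoma. The knockdown group carried shRNA against SMARCB1 (shSMARCB1) and the control group carried a control shRNA (shCon). Stable shRNA cells were selected with puromycin, and each group had 1 library. Another library profiled SMARCB1 itself with an antibody, in cells whose shRNA is not labelled. An input library without antibody is labelled too and was not analysed here. With 1 library per group there are no replicates, so no difference between the conditions was tested. The bracketed ranges are 95% Wilson intervals, or exact Poisson intervals where a density is given, and they cover counting error only.

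The knockdown library held 10203310 tags and the control library 13235203, so the knockdown had 77.1% of the control's tags. The fragment length was 158 bp for the knockdown library and 190 bp for the control library, and a peak needed 10 tags in the knockdown and 11 in the control, which is 9.80 and 8.31 tags for every 10000000 sequenced. Both lists were called against the same control input. The part of these library differences in the regions was not tested. Of 8 mesenchymal marker genes, 7 carried an H3K27ac peak within 1 kb of a gene end in the knockdown and 8 in the control. The 8 endothelial markers carried none in either library. Of 10 hepatocyte markers, 2 carried a peak in the knockdown and 1 in the control, with ALB, APOA1, APOB, TTR, AFP, HNF4A and CYP3A4 among those unmarked in both. Epithelial markers were marked at 3 of 8 genes in the knockdown and 5 of 8 in the control. Leukocyte markers were marked at 2 of 6 genes in each library, and only CD14 was marked in both. Most of these hepatocyte genes, which a label of hepatic adenocarcinoma brings to mind, thus had no called H3K27ac peak within 1 kb of an end. Peaks elsewhere in or around the marker genes were not counted.

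SMARCB1 is a core subunit of the SWI/SNF complexes, which slide and evict nucleosomes and act at promoters and enhancers. Acetylation of this lysine is laid down mainly by the acetyltransferases CBP and p300, and a broad acetylated domain usually joins several neighbouring nucleosomes around an enhancer or promoter. In the text that follows, bases of a region under a control peak are called retained, and bases with a knockdown peak alone are called added.

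Few of the regions lay on a transcription start, and those that did give a direct view of the sequence that was added or retained. RefSeq promoter windows (GRCh38.p14; 250 bases before to 50 after a start) are shown for 3 starts in added bases, chosen for the greatest added length, and for 2 starts covered by a SMARCB1 peak. Capitals mark the matches to the motifs searched. SRP68 encodes a protein of the signal recognition particle, and the start shown lies inside the gene at chr17:76053607-76053906, minus strand. PTH1R encodes the parathyroid hormone receptor, at chr3:46877471-46877770, plus strand. CECR2 encodes a bromodomain protein of chromatin remodelling complexes, at chr22:17359699-17359998, plus strand. NDFIP2 encodes an adaptor of NEDD4-family ubiquitin ligases, at chr13:79480905-79481204, plus strand. CASTOR1 encodes a cytosolic arginine sensor, at chr22:30289456-30289755, minus strand.
SRP68: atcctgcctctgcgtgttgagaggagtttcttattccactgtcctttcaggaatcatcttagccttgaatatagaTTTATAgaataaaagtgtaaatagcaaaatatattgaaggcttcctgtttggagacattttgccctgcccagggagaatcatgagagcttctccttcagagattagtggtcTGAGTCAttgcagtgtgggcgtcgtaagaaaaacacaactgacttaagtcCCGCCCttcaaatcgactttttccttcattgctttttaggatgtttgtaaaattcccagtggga
PTH1R: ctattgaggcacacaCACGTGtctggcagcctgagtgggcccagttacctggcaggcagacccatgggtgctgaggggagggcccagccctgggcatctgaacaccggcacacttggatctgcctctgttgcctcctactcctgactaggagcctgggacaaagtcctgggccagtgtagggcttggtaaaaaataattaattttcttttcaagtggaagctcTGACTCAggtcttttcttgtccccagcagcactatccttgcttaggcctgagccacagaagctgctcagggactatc
CECR2: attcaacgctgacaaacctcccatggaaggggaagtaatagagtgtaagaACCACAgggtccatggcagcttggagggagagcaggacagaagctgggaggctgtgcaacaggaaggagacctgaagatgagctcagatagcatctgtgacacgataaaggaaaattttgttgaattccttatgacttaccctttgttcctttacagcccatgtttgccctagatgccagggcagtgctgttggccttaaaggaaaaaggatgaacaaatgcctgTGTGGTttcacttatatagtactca
NDFIP2: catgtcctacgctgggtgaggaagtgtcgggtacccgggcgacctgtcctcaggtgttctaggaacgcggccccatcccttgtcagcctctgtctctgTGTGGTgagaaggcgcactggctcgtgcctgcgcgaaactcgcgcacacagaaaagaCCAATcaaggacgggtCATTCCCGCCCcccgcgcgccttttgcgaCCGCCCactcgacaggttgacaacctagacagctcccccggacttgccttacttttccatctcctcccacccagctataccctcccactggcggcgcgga
CASTOR1: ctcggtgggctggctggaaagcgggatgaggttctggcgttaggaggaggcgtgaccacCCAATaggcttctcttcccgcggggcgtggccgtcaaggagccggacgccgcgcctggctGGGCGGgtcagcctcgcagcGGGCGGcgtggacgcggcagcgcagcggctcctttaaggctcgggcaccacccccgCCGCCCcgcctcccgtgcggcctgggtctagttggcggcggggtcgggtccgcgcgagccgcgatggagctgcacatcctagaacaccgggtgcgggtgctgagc

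The SRP68, PTH1R and CECR2 windows lay wholly in the knockdown peak and had 0 of 300 bases under a control peak. The nearest control peak was 3002 bp from the SRP68 start, 1250 bp from the PTH1R start and 301 bp from the CECR2 start. The NDFIP2 window had 216 bases and the CASTOR1 window 300 bases under a control peak, and a SMARCB1 peak lay on both. The SRP68, PTH1R and CECR2 windows were poorer in CpG dinucleotides, with 5, 2 and 2, against 24 in NDFIP2 and 37 in CASTOR1. Their G+C share was 41% in SRP68, 55% in PTH1R and 46.3% in CECR2, against 62.3% in NDFIP2 and 72.7% in CASTOR1. The median over all 22132 windows used was 21 CpG. NDFIP2 and CASTOR1 were chosen for a SMARCB1 peak, so added acetylation and SMARCB1 cannot be told apart in this contrast.

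The windows were searched on both strands for short motif letters. Those of transcription factor families were TGANTCA for the AP-1 family, GGAATG for the TEAD family, CCGGAAG for the ETS family, TGTTTAC for the forkhead (FOX) family, AGATAA for the GATA family, TGTGGT for the RUNX family and TGACGT for the cyclic AMP response element (CRE). The others, named by their element, were GGGCGG for the GC box, CCAAT for the element of that name, TATAAA for the TATA box and CACGTG for the E-box. Counting bases from the 5′ end of the window, SRP68 held TATA box letters at 76 to 81, AP-1 letters at 187 to 193 and a GC box at 237 to 242. PTH1R held an E-box at 16 to 21 and AP-1 letters at 224 to 230, and CECR2 held RUNX letters at 51 to 56 and at 276 to 281. NDFIP2 held RUNX letters at 99 to 104, CCAAT at 156 to 160 and GC boxes at 177 to 182 and 201 to 206, and TEAD letters at 172 to 177 that overlap a GC box by 1 base. CASTOR1 held CCAAT at 60 to 64 and GC boxes at 120 to 125, 140 to 145 and 196 to 201. Among all 22132 promoter windows used, 6.15% held AP-1 letters, 12.2% TEAD, 56.3% a GC box, 34.6% CCAAT, 9.46% TATA box, 8.34% E-box, 12.8% ETS, 2.85% FOX, 7.88% GATA, 11.3% RUNX and 8.92% CRE letters.

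The 43 regions of chromosome 8 were left out here, since its promoter windows were not used. In the remaining 575 regions, 53 RefSeq starts of 47 genes lay in 43 regions, or 7.48% (5.60 to 9.92%), against 41.4% (40.7 to 42.1%) of the other shared wide peaks with a start. Of these starts, 43 (38 genes) were in retained bases and 10 (10 genes) in added bases. The 10 starts in added bases belonged to SRP68, PTH1R, CECR2, RBPJ, ZBED2, VTN, ABCD2, MGA, LTBP4 and TBC1D28. RBPJ is the DNA-binding effector of Notch signalling, VTN encodes vitronectin, ABCD2 a peroxisomal fatty acid transporter and LTBP4 a latent TGF-beta binding protein. Their distance to the nearest control peak ran from 233 to 3002 bp, with a median of 682 bp. Of the 43 starts in retained bases, 34 had added sequence on both sides and 9 on 1 side only. More of it was downstream at 24 starts and upstream at 19, with medians of 672 bp downstream and 485 bp upstream.

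Promoter windows in added bases had a median G+C share of 52.5% and a median of 3.5 CpG, over 10 windows. All windows in the regions had 62.7% and 21 CpG (53 windows), windows in the other wide peaks shared with the control had 66.7% and 28 CpG (10113 windows), and all windows used had 62.3% and 21 CpG. AP-1 letters occurred in 4 of 10 windows in added bases and in 7 of 53 windows in the regions, against 4.27% in the other shared wide peaks. A GC box occurred in 2 of 10 windows in added bases and in 58.5% of windows in the regions, against 74.3% in the other shared wide peaks. Some of these windows belong to 1 gene and overlap, and 10 windows are too few to set a share apart.

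The regions had a median width of 2138 bp, from 1500 to 19032 bp, of which a median of 910 bp was retained and 1228 bp added. The covered share had a median of 44.3% and a highest value of 59.99%, and the added length from 615 to 17962 bp. At the limit, the members just inside had 59.9% (near AUTS2), 59.91% (TTI2) and 59.99% (DPH5) of their length under control peaks. The peaks just outside had 60% (RHBDL2 and NAGLU) and 60.01% (CFL2), so the limit cuts through a continuous range. The count was 394 with a limit of 50% and 1022 with 70%, and it was 1023 with a minimum width of 1000 bp and 351 with 2000 bp. It was 254 when each control peak was lengthened by 250 bp at both ends, so the membership rests on where the control calls end.

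The word spreading was set against the whole control peaks, since a control peak can run on beyond the region. In 605 regions the knockdown peak was wider than the summed length of all the control peaks it met, and in 13 it was not. The ratio of knockdown width to summed control width had a median of 2.17. Near HNRNPF, chosen after its values were seen for the lowest ratio (0.218), a knockdown peak of 1545 bp met control peaks of 7089 bp in all, so that region is a fragment of a longer control domain. Within 10 kb on either side, acetylated length was greater in the knockdown at 583 regions (94.3%), against 4605 of the 17296 other shared wide peaks (26.6%). The median ratio of knockdown to control length in that window was 1.84 at the regions and 0.910 at the other shared wide peaks. The rule used the same contrast, so these shares describe the members and are not evidence of a separate change.

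**Figure D1:**
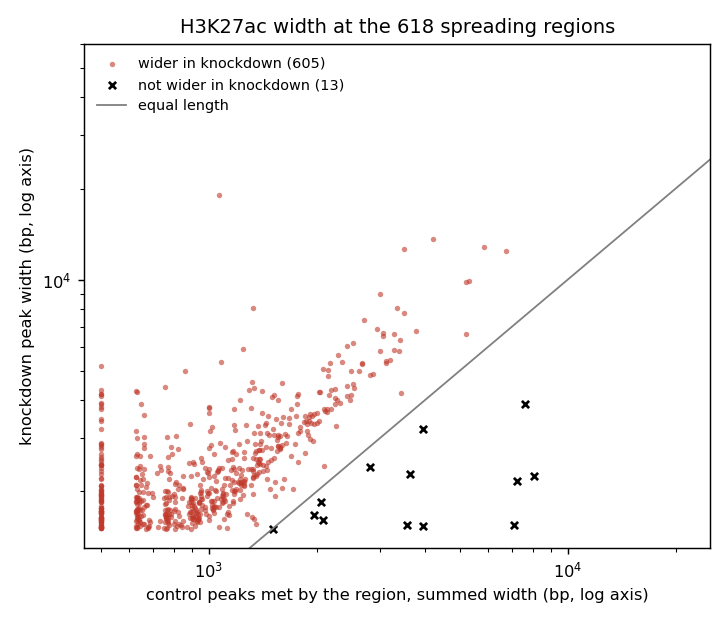
Knockdown H3K27ac peak width (vertical axis, bp, log scale) against the summed width of the control peaks it met (horizontal axis, bp, log scale) for each of the 618 regions. Red points lie above the line of equal length (605 regions, wider in the knockdown) and black crosses on the other side of it (13 regions); the column of points at the left is made of regions whose control peak has the narrowest called width, 501 bp.

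The added sequence lay mostly at the borders of an existing control peak rather than in gaps between peaks. Of the 618 regions, 560 held 1 control peak, 52 held 2 and 6 held 3. A region with 1 control peak has no such gap, so the number of control peaks largely fixes this split. The knockdown peak passed the outermost control peaks at both ends in 473 regions (76.5%) and at 1 end in 140, and only 5 had their added bases solely between control peaks. With control peaks lengthened by 250 bp at both ends, 44.5% of the 254 regions left passed at both ends. Where both ends were passed, the longer extension had a median of 958 bp and the shorter one 266 bp. A continuous added run of 500 bp or more was found in 600 regions and one of 1000 bp or more in 312. Added bases summed to 0.956 Mb, of which 91.8% lay at the ends, and they were 12.8% of the 7.473 Mb that carried a knockdown peak and no control peak. In 103 regions (16.7%) the control held no more than a call of the narrowest width, 501 bp, and in 0 of the 17296 other shared wide peaks, a difference that the rule itself makes.

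The same rule was turned round to give a scale for these counts. Of 19887 control peaks at least 1500 bp wide, 1556 (7.82%) had more than 0 but less than 60% of their length under knockdown peaks, so partial cover was more frequent among control peaks than among knockdown peaks (3.40%). So the reverse case, a control peak that reached further than the knockdown, was more frequent, in a control library that held more tags. Among knockdown peaks, the narrower ones met the rule more often, at 4.85% (4.31 to 5.45%) for widths of at least 1500 and under 2000 bp and 1.90% (1.39 to 2.59%) for widths of 5000 bp or more.

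COL5A2, which encodes a chain of the fibril-forming type V collagen, carried the most added sequence of any gene body among the 12 regions of greatest added length. At chr2:189104087-189117735 (hg38), a knockdown peak of 13649 bp met control peaks of 761, 501 and 2962 bp, so 9425 bp were added. At chr2:189120770-189133420, a knockdown peak of 12651 bp met control peaks of 501, 767 and 2223 bp, so 9160 bp were added. In both places 3 separate control peaks lay under 1 knockdown peak. A further region at chr2:189216198-189218769 had 2572 bp in the knockdown, against 952 bp in the control. Over the stretch around these 3 regions, peaks covered 49417 bp in the knockdown, against 23229 bp in the control, and another 2 regions with added H3K27ac lay at the far end of the same gene record. No SMARCB1 peak lay in any of the 5. The added bases of chr2:189120770-189133420 also hold the only hairpin of the RefSeq miRNA table that lay in a region, MIR3129, on the minus strand at chr2:189133036-189133111. Its mature sequences, with the seed (bases 2 to 8) in capitals, are given to show which miRNA it is, since the arms do not share a seed.
hsa-miR-3129-3p: aAACUAAUcucuacacugcugc
hsa-miR-3129-5p: gCAGUAGUguagagauugguuu

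The longest extension was on chromosome 8, far from any protein-coding gene. At chr8:122126694-122145725, a knockdown peak of 19032 bp met a control peak of 1070 bp, so 5.62% of it was retained and 17962 bp were added, 15244 bp of them on 1 side. The nearest protein-coding gene end, that of HAS2, was 485254 bp away. HAS2, a synthase of the matrix polysaccharide hyaluronan, had a region of its own at chr8:121639074-121642845, with 3772 bp in the knockdown, against 1308 bp in 2 control peaks. TRMT9B, of a tRNA methyltransferase family, had 5172 bp in the knockdown and the narrowest call of 501 bp in the control, inside the gene body. FAM110B was the nearest gene to 3 further regions of this chromosome, the closest of them 428407 bp away.

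The other regions of greatest added length were a mixture of intergenic stretches, gene bodies and promoters. The region 81658 bp from BTC, which encodes the EGF-family ligand betacellulin, had 12831 bp in the knockdown against 5847 bp in 2 control peaks. The one in AJAP1, an adherens junction associated protein gene, had 8042 bp in the knockdown against 1327 bp in the control. A region over the shared promoter of C2CD3, a centriole gene, and PPME1, a protein phosphatase methylesterase gene, had 8954 bp in the knockdown against 3001 bp. There both starts were in retained bases, and the added 5953 bp lay mostly on the PPME1 side, downstream of its start. The remaining regions were near LOC124904228 with 12432 bp in the knockdown against 6729 bp, SRP68 with 8059 bp against 3339 bp, and LSM3, of the Sm-like RNA-binding family, with 5919 bp against 1245 bp. C7, a terminal complement component, had 9936 bp in the knockdown against 5300 bp, and the region 135142 bp from the cholesterol efflux transporter gene ABCA1 had 9831 bp against 5197 bp in 3 control peaks.

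**Figure D2:**
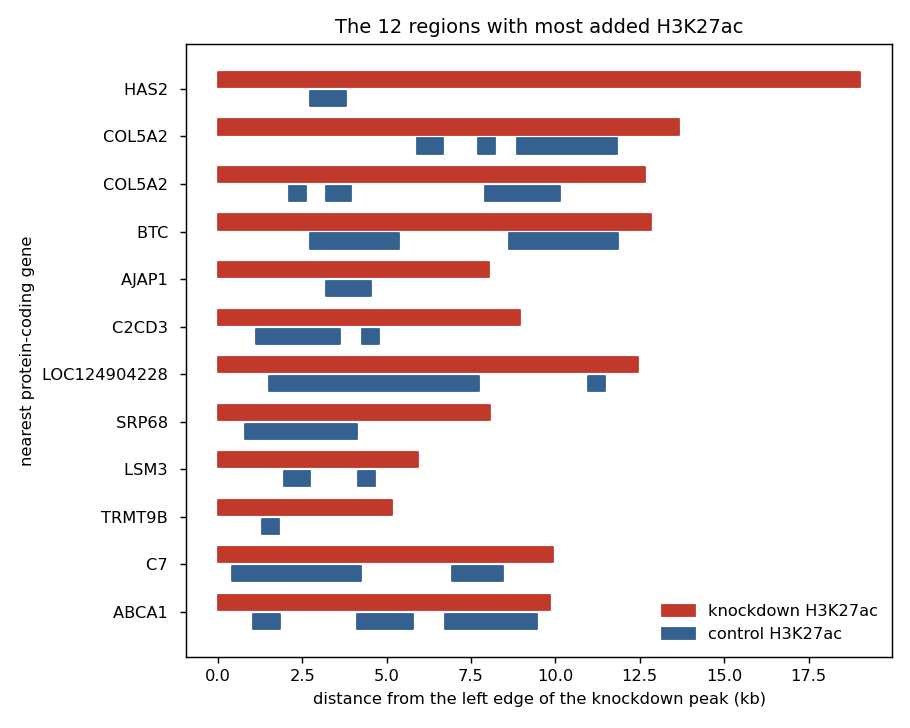
Extent of H3K27ac peaks in the knockdown (red, upper bar of each pair) and in the control (blue, lower bars) for the 12 regions of greatest added length, in kb from the left edge of the knockdown peak. Rows are named by the nearest protein-coding gene end, which for the top row lies 485254 bp away; in 8 rows the control has 2 or 3 separate peaks where the knockdown has 1.

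The regions with the least retained sequence included those near HAS2, NLRC5, TRMT9B and INPP4B. NLRC5, a transactivator of MHC class I genes, had 129 bp retained of 1510 bp, and the control peak there was 501 bp wide. INPP4B, a phosphoinositide phosphatase gene, had a 4320-bp knockdown peak around a control peak of 501 bp in its body. Joining of several control peaks was seen at COL5A2 in 2 places, and also near ABCA1, near ERAP1 (inside CAST) and near FAM110B, each with 3 control peaks under 1 knockdown peak. A region in SNX6 also met 3 control peaks, but these summed to 7585 bp, more than its knockdown peak of 3895 bp. At the ERAP1 and CAST region 2035 of the 3020 added bp lay between the control peaks.

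SMARCB1 peaks were rare in these regions. Of 618 regions 16 overlapped a SMARCB1 peak by at least 1 base, or 2.59% (1.60 to 4.16%), against 2332 of 17296 other shared wide peaks, or 13.5% (13.0 to 14.0%). The share was 1.85% (0.794 to 4.26%) in the 270 wide knockdown peaks with no control peak at all. It was 4.56% (3.63 to 5.72%) in the 1556 wide control peaks that knockdown peaks covered under 60%. In every width class the share was lower in the regions. With classes that include their lower bound, it was 2.25% against 11.1% at 1500 to 2000 bp, 1.01% against 13.7% at 2000 to 3000 bp, 5.26% against 15.1% at 3000 to 5000 bp and 5.13% against 15.9% at 5000 bp or more. In the widest class the interval of the regions (1.42 to 16.9%) overlaps that of the other peaks (14.4 to 17.6%). Read the other way, 0.680% (0.419 to 1.10%) of wide knockdown peaks with a SMARCB1 peak met the rule, against 3.80% (3.52 to 4.11%) of those without. With a stricter limit of 50% covered the share of regions with SMARCB1 was 0.761%, and with lengthened control peaks 0.787%.

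Within the regions, SMARCB1 peaks lay mostly on the part that was acetylated in both libraries. Of the 16 peaks, 13 had their centre in retained bases, 2 in added bases and 1 just outside. This is 2.09 centres per Mb of added sequence (0.253 to 7.56) and 18.9 per Mb of retained sequence (10.1 to 32.3). The density was 0 in added and 8.46 in retained sequence with a limit of 50%, and 0 in added and 5.80 in retained sequence with lengthened control peaks. With the 50% of SMARCB1 peaks of highest value it was 1.05 in added and 10.2 in retained sequence. In the other wide peaks shared with the control the densities were 5.98 per Mb (3.27 to 10.0) in bases without a control peak and 44.7 per Mb (42.9 to 46.5) in bases with one. The centre in added bases near UBB lay in the exon class of the authors' list, and the one near PICALM was intergenic.

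The 16 SMARCB1 peaks did not include the strongest ones. Their value in the authors' list, for which the sources used here name no unit, ran from 8.45 to 32.7 with a median of 11.6, against 7.39 to 1217.4 with a median of 11.6 over all 4453 peaks. The authors' position classes put 6 in introns, 4 at promoters, 3 in exons and 3 between genes. By value the peaks were led by SLC2A1, the glucose transporter GLUT1 gene (32.7), SHMT1, a serine hydroxymethyltransferase of folate metabolism (31.7), UBB, a polyubiquitin gene (26.4), and NDFIP2 and CASTOR1 (13.2 each). The SLC2A1 peak overlapped the border of the region, with its centre outside and the part inside wholly in added bases. The UBB peak had its centre in added bases, whereas those of SHMT1, NDFIP2 and CASTOR1 had theirs in retained bases. At SHMT1 a knockdown peak of 3347 bp met a control peak of 1877 bp, with the 801-bp SMARCB1 peak over the start in retained bases.

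By added length the regions with SMARCB1 began with LRRC75A, which had 5087 bp in the knockdown, against 2077 bp in the control. At NDFIP2, whose promoter is shown above, 5279 bp in the knockdown met 2682 bp in 2 control peaks, and 2233 bp of the 2597 added bp lay between them. Near ANKRD10 the knockdown had 4517 bp and the control 2519 bp, and at UBB 4082 bp and 2249 bp. PADI1, a peptidylarginine deiminase gene, had 3998 bp in the knockdown with 2381 bp of it retained. The region near CHSY1, a chondroitin synthase gene, had 3926 bp with 2322 bp retained, and CASTOR1 had 3697 bp with 2107 bp retained. The retained share of these 7 regions ran from 40.8% at LRRC75A to 59.6% at PADI1. Among the other regions with SMARCB1 it was lower at TEN1 (34.5%) and C10orf67 (36.9%), which were named after their values were seen.

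Gene ends were reached by few of the regions. A region lay within 1 kb of an end of a protein-coding gene record in 54 of 618 cases, or 8.74% (6.76 to 11.2%), against 7944 of 17296 other shared wide peaks, or 45.9% (45.2 to 46.7%). The share was 4.07% (2.29 to 7.15%) in wide knockdown peaks with no control peak and 19.0% (17.1 to 21.1%) in the wide control peaks covered under 60%. By width it was 7.49% against 47.5% at 1500 to 2000 bp, 7.07% against 50.5% at 2000 to 3000 bp, 12.3% against 41.7% at 3000 to 5000 bp and 15.4% against 35.8% at 5000 bp or more. The median distance to the nearest gene end was 33420 bp for the regions and 3604 bp for the other shared wide peaks. Gene bodies held 53.2% (49.3 to 57.1%) of the regions and 74.0% (73.3 to 74.6%) of the other shared wide peaks. Of wide knockdown peaks at a gene end 0.674% (0.517 to 0.879%) met the rule, against 5.54% (5.11 to 6.01%) of those away from one. In all, 63 protein-coding genes had a region at an end, a count that ran from 19 to 142 over the limits tried. The scarcity of gene ends and that of SMARCB1 peaks were not separated from each other.

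**Figure D3:**
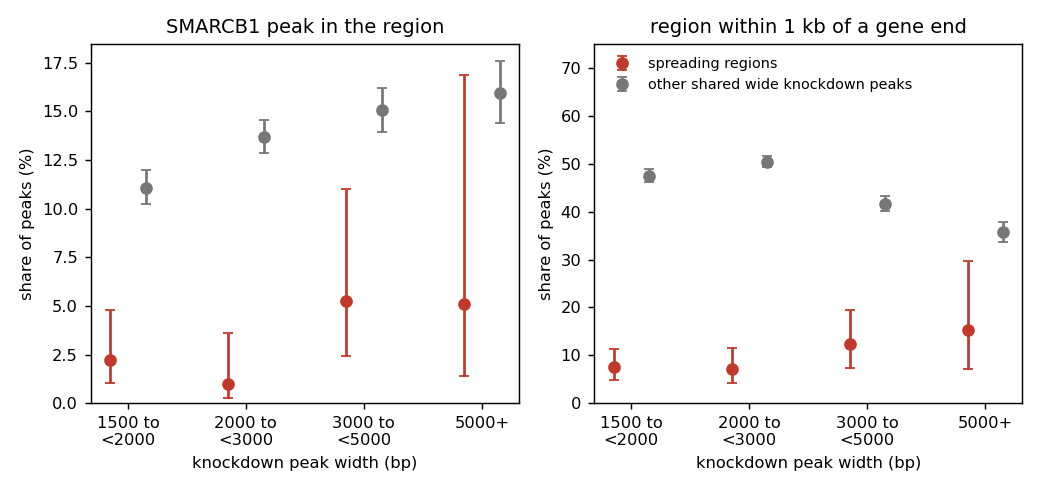
Share of peaks (%) that overlap a SMARCB1 peak (left) and that lie within 1 kb of a gene end (right), by knockdown peak width in bp, for the spreading regions (red) and the other shared wide knockdown peaks (grey); bars are 95% Wilson intervals. In every width class the red point is lower, for example 2.25% against 11.1% for SMARCB1 and 7.49% against 47.5% for gene ends at 1500 to 2000 bp.

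Across 25 lists of genes for pathways, cell types and complexes, no list gathered the regions. Of 491 listed genes that had a wide knockdown peak within 10 kb of an end, 13 had a spreading region there (2.65%), against 220 of all 11342 such genes (1.94%). No list held more than 1 such gene, and 12 lists held none. Lists with no such gene were Polycomb subunits, AP-1 and immediate early genes, TGF-beta and BMP, WNT, epithelial genes, endothelial genes, and growth factor receptors and ligands. The others were inflammation and NF-kB, interferon and antigen presentation, HOX genes, cell cycle and cytosolic ribosomal proteins. A share near the background is no result about the lists.

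The 13 genes are given by role. Of the SWI/SNF subunit genes, SMARCB1 itself had a region at chr22:23783508-23785302, 1664 bp from its gene end and reaching MMP11, with 1795 bp in the knockdown, against 501 bp in the control. The peak at the SMARCB1 end itself was 1904 bp in the knockdown, against 2341 bp in the control, so acetylation at that gene was shorter in the knockdown; peak lists do not measure SMARCB1 protein or RNA, and the extent of the knockdown was not analysed here. Among matrix and adhesion genes, HAS2 had 2464 bp added at its end, and BCAR1, a focal adhesion scaffold gene, had a region 3452 bp from its end with 2873 bp in the knockdown against 662 bp in the control. Around SPARC, a matrix glycoprotein gene, and CRIM1, a YAP-responsive gene, the regions had 831 and 861 bp added, but the whole control peak there was wider than the knockdown peak. At SPARC the knockdown peak was 1539 bp wide and the control peak 3952 bp.

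Among metabolic and transport genes, UGT2B7, a liver enzyme that glucuronidates drugs and bile acids, had 5356 bp in the knockdown against 1085 bp in the control. NUP98, a nucleoporin gene, had 2386 bp in the knockdown against 501 bp, and SREBF1, the regulator of lipid synthesis, had 1850 bp against 627 bp retained. SLC2A1 had 2156 bp against a control peak of 1535 bp, with 880 bp added, and SERPINA1, the alpha-1-antitrypsin gene of hepatocytes, had 2101 bp against 1311 bp, with 936 bp added. These lie at or inside the gene except for NUP98, which is 5168 bp away. That region lies inside PGAP2, whose end is nearer, at 5002 bp. Among regulators, GATA3, a transcription factor, had 2033 bp in the knockdown against a control peak of 1480 bp, of which 822 bp were retained. Within 10 kb of that region the knockdown had 4495 bp and the control 5957 bp. SEMA3C, a secreted guidance cue, had 1614 bp in the knockdown against 501 bp, and NF1, a negative regulator of RAS, had 1648 bp against a control peak of 1321 bp, with 748 bp added.

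Some regions lay close to each other. Of 618 regions 133 (21.5%) lay within 100 kb of another, in 59 groups, of which 12 held 3 or more. This share was not set against the uneven spacing of wide peaks in general. The groups named here were chosen after their values were seen. At UGT2B7 4 of the 5 wide knockdown peaks in a 26.1-kb stretch were spreading regions, with 11346 bp added. Peaks over that stretch covered 20090 bp in the knockdown, against 6259 bp in the control. UGT2B7 has close sequence relatives next to it, and the sources used here do not say how the authors' mapping treated reads shared among them. Near IGF2, a fetal growth factor gene, all 3 knockdown peaks were spreading regions. They measured 1859, 3931 and 1907 bp, against 648, 501 and 501 bp for the 3 control peaks, or 7697 bp in the knockdown, against 1650 bp in the control. Near GTSF1L 3 regions covered 8167 bp in the knockdown, against 4341 bp in the control. Groups of 4 lay near LSM3 and SLC6A6 and near ABCA1 and SLC44A1. All peaks of the stretch around the LSM3 group, 8 in the knockdown and 7 in the control, covered 26099 bp in the knockdown, against 13120 bp in the control. Around the ABCA1 group, 7 knockdown and 6 control peaks covered 18687 bp in the knockdown, against 7740 bp in the control. The other groups of 3 lay near FAM110B, SNX6, PPP1R3C, AUTS2, SHMT1, TSC22D2 and COL5A2.

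**Figure D4:**
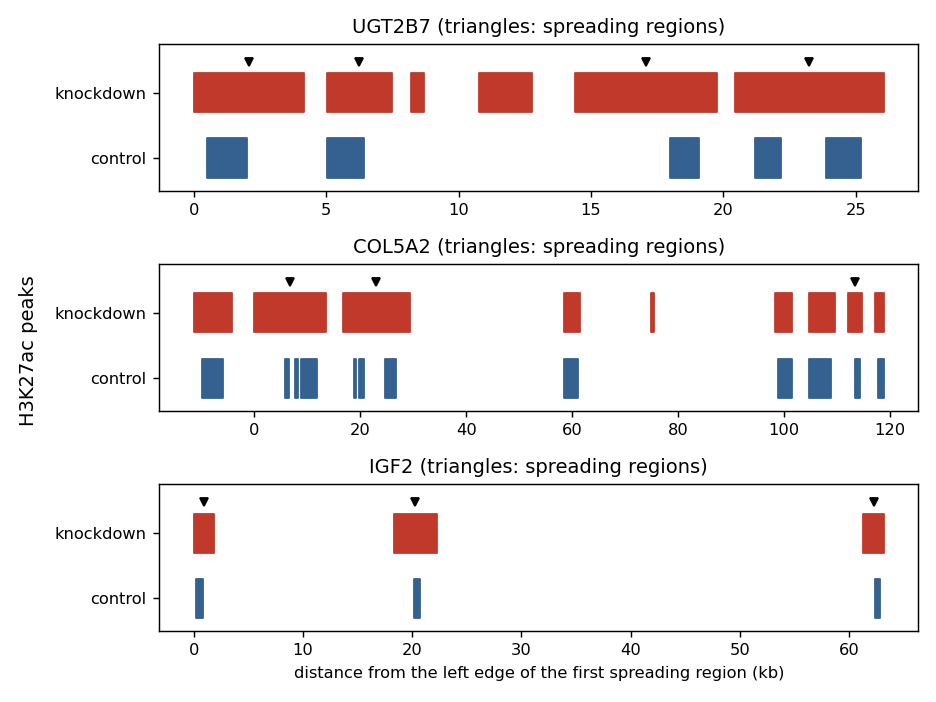
H3K27ac peaks in the knockdown (upper track, red) and the control (lower track, blue) at the groups near UGT2B7, COL5A2 and IGF2, in kb from the left edge of the first spreading region; triangles mark the spreading regions. Peaks cover 20090 bp in the knockdown against 6259 bp in the control at UGT2B7, 49417 against 23229 bp at COL5A2 and 7697 against 1650 bp at IGF2.

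The share of wide knockdown peaks that met the rule differed by chromosome. It was highest on chromosomes 8 (5.64%, 4.22 to 7.51%), 18 (5.60%, 3.42 to 9.03%) and 17 (4.78%, 3.66 to 6.24%), and lowest on 19 (0.694%, 0.318 to 1.50%). The mirror share among control peaks was 9.42% on 8, 6.12% on 18, 5.02% on 17 and 7.06% on 19. Chromosome 17 thus had the lowest mirror share together with 1 of the highest shares in the knockdown. In 379 segments of 5 Mb with at least 20 wide knockdown peaks, 117 held no region and 15 held 5 or more.

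A segment of chromosome 17 from 15 to 20 Mb held the most, with 11 of 86 wide knockdown peaks (12.8%, 7.29 to 21.5%), against 1 of 76 wide control peaks that met the mirror rule. H3K27ac peaks covered 373586 bp in the knockdown, against 288617 bp in the control there, a ratio of 1.29, whereas the median segment had 0.883 and 42 segments were above 1. These regions were near LRRC75A, PEMT, TBC1D28, UBB, SHMT1 (2 regions), RAI1 (the SREBF1 region above), GRAP, LGALS9C, TVP23C-CDRT4 and EPN2. Of them, 4 carried a SMARCB1 peak. So 4 of the 16 regions with SMARCB1 came from this segment. This count was not set against the SMARCB1 peaks at the other wide peaks of the segment. Other dense segments were chromosome 9 from 75 to 80 Mb with 5 of 26 peaks and a length ratio of 1.31, and chromosome 14 from 30 to 35 Mb with 5 of 30 and 1.13. The segment of chromosome 2 from 185 to 190 Mb, which holds COL5A2, had 5 of 33 peaks with a ratio of 1.25. Dense segments also had ratios below 1, such as chromosome 9 from 105 to 110 Mb with 5 of 35 peaks and 0.915, and chromosome 3 from 10 to 15 Mb with 6 of 51 and 0.932. Of the 15 segments with 5 or more regions, 7 had a ratio above 1. The segment of chromosome 8 from 120 to 125 Mb had a ratio of 1.53 with 3 of 31 peaks.

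**Figure D5:**
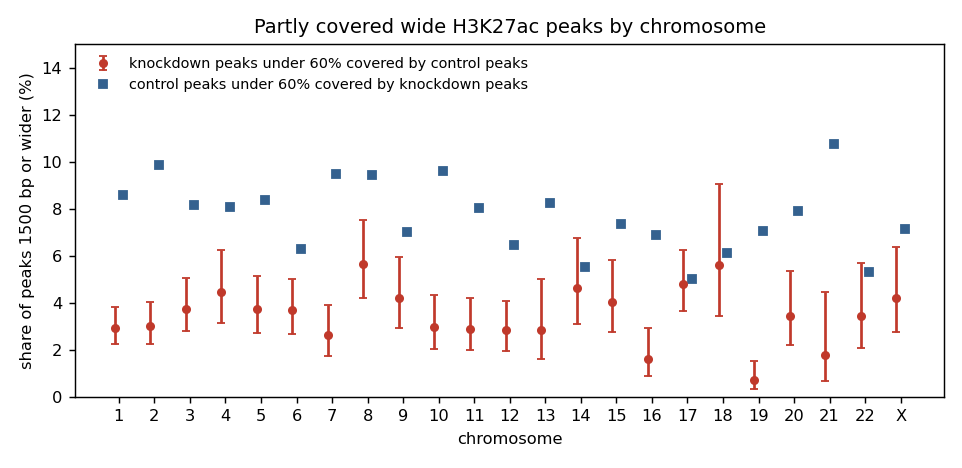
Share of H3K27ac peaks at least 1500 bp wide that are partly covered, in %, by chromosome: knockdown peaks under 60% covered by control peaks (red, with 95% Wilson intervals) and control peaks under 60% covered by knockdown peaks (blue squares). The red share runs from 0.694% on chromosome 19 to 5.64% on chromosome 8, and chromosome 17 has the lowest blue share, 5.02%.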

How the data were processed

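ChIP-seq of H3K27ac and SMARCB1 was made in SK-Hep1 cells, with 1 library per group. The submitters' processing notes name Bowtie2, HOMER and hg38, with no versions. Per the file headers, the authors called each H3K27ac list on its own library with HOMER's histone setting, both with the control input. The settings in those headers were 500 bp for peak size, 1000 bp between peaks, and at least 4-fold signal above input and above the surrounding 10000 bp, with nearby peaks stitched into regions of variable length. The deposited H3K27ac lists carry the same score for every peak, so only peak positions were used. The deposited SMARCB1 list has a value and a position class per peak, both the authors' own, and the value was used as a score within that list only. The sources used here give neither its depth nor its caller settings.

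Covered length, gene distances and promoter matches were computed in Python 3.11.15 (pandas 2.3.3, NumPy 2.4.6, SciPy 1.17.1), and figures were drawn with matplotlib 3.10.9. The coverage tool of bedtools 2.31.1 gave the same 618 regions. On simulated peaks, all 133 wide ones were placed as a base-by-base count placed them. Positions are 1-based. Gene records were those of RefSeq for GRCh38.p14, the assembly of hg38, and numbered 19821 for protein-coding genes. A gene end is either end of a gene record, so it includes 3′ ends. RefSeq promoter windows were used for 15812 genes, and the others, with all of chromosome 8, were not used here. No genome was used, so motifs were searched in promoter windows only.

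The members, the 25 gene lists and the rules were chosen with earlier results of these data known. Regions were named by the nearest gene end. Named were the 12 of greatest added length, 5 of lowest covered share, 5 with most control peaks, 8 of greatest added length and 5 of highest value with SMARCB1, 3 on each side of the limit, and up to 3 per list. Of the regions and markers so named, 2 are not reported here. Shares have 95% Wilson intervals and densities exact Poisson intervals. Alternatives changed the covered share, width, control and knockdown peak borders, SMARCB1 peaks, gene window and sequences kept.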

Additional observations from a re-analysis of the deposited data

How the results depend on the processing

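Of 88 values recomputed under the alternatives, 45 stayed within their own interval or within 1.5 times for counts, and 43 moved. The comparisons with the other wide peaks kept their order: SMARCB1 peaks and gene ends were less frequent in the regions under each alternative. With a covered share under 50% there were 394 regions (2.17% of wide knockdown peaks), with a median added length of 1364 bp, 0.761% with SMARCB1, 6.35% at a gene end, 28 genes, and 0.00 SMARCB1 centres per Mb of added and 8.46 of retained sequence. Under 70% there were 1022 regions (5.62%), with 1060 bp added, 12% at a gene end, 142 genes and 70% passing the control at both ends. With a width of at least 1000 bp there were 1023 regions (4.30%), with 936 bp added, 67.8% passing at both ends and 96 genes; the other peaks had 12.4% with SMARCB1 and 44.3% at a gene end. With at least 2000 bp there were 351 regions (2.77%), with 1610 bp added, 79.8% passing at both ends and 41 genes, and the other peaks had 14.5% with SMARCB1. With control peaks lengthened by 250 bp at both ends there were 254 regions (1.40%), 0.787% with SMARCB1, 44.5% passing at both ends, 19 genes, and 0.00 centres per Mb of added and 5.80 of retained sequence, and 45.2% of the other peaks at a gene end. With knockdown peaks shortened by 100 bp at both ends 2.64% of wide peaks met the rule, with 1284 bp added, 62.6% passing at both ends and 39 genes. The 50% of SMARCB1 peaks with the highest value gave 1.46% in the regions against 8.94% in the other peaks. A gene end window of 2.5 kb gave 12.3% in the regions against 48.3% in the other peaks. Merging control peaks at most 1000 bp apart left 587 regions. The settings for SMARCB1 peaks and for the gene end window kept all 618 regions, whereas the limits and peak borders alter the members; beyond this the cause was not tested.

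No paired analysis was possible because each group had 1 library, and for the same reason none was left out in turn. Peak lists give borders and no signal, so a longer stretch past the caller's threshold and a higher signal throughout cannot be told apart. The knockdown library had fewer tags and a shorter fragment length than the control library; their part was not tested. The SMARCB1 counts in added sequence rest on 2 peak centres.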
